A study of Homo sapiens with 4 samples.

Results

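Macroautophagy encloses cytoplasmic cargo in a double membrane that fuses with the lysosome. The ULK kinase complex starts the process, a lipid kinase complex marks the membrane with phosphatidylinositol 3-phosphate, lipid-transfer proteins feed the growing membrane, and a ubiquitin-like conjugation system attaches proteins of the ATG8 family to it. Cargo receptors then bind ATG8 proteins and ubiquitin, and transcription factors of the MiT family, TFEB, TFE3 and MITF, drive genes of the pathway and of lysosomes. Described here are 42 human genes of this machinery, chosen by name with earlier results of these data known. They are among 18418 genes with a transcript cluster (a set of probes for 1 transcript locus) annotated to a single symbol. All 42 were measured, each by its brightest such cluster, and were sorted by role into 7 steps.

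The cells were AGS, an established line from a human gastric adenocarcinoma. They had been given 0.01% ornithogalum, a homeopathic formulation, for 36 h (n = 2 arrays) or ethanol, its vehicle, for 36 h (n = 2 arrays). The labels call the arrays biological replicates but name no separate cultures or days, so each p-value reflects only how far these arrays spread. The readout is a log2 expression value from Affymetrix Human Gene 1.0 ST arrays, on which 1 unit is a doubling, and values of different genes are not compared since probes differ in response.

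The epithelial markers KRT8, KRT18 and EPCAM lay between 9.34 and 10.59 on every array. KRT19 fell 2.63-fold, and CLDN4, at 7.52 and 7.04 for ornithogalum against 6.74 and 6.81 for vehicle, did not pass (adjusted p = 0.134). Of 10 measured markers of fibroblasts, leukocytes and endothelial cells, 0 passed the test, and their values ran from 1.40 to 5.54. Over tested clusters the median log2 value was 4.48 and 4.62 for ornithogalum, against 4.71 and 4.70 for vehicle. Replicates differed more among ornithogalum arrays, with a root-mean-square within-group SD over tested clusters of 0.258, against 0.140 for vehicle arrays. For the 42 autophagy genes the median of the per-gene SDs, another statistic, was 0.115 for ornithogalum and 0.0557 for vehicle.

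Autophagy genes did not move as a block. Ornithogalum-treated cells had higher levels of the receptor gene SQSTM1, of the ATG8 genes GABARAPL1 and MAP1LC3B, of UVRAG, TFE3 and ATG2A, and of ATG4A, ATG12, ATG14 and WDR45. They had lower levels of the ATG8 protease gene ATG4C, of WIPI1 and ATG10, and of WIPI2, ATG5, ATG4B and PIK3R4. With limma over all 21214 clusters and a Benjamini-Hochberg adjusted p under 0.05, 17 of the 42 genes (40.5%) passed, 10 higher and 7 lower, where 19.2% of all clusters passed, 6.57% higher and 12.6% lower. Bright clusters passed more often, 31.0% of those at or above the median brightness, and 36 of the autophagy genes lay there, 15 of which passed. The median log2 difference of the 42 genes was 0.11, against 0.04 over all clusters. In such a bulk measurement, fewer cells of a kind and less RNA per cell cannot be told apart.

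With a vehicle array left out, that group has 1 array and limma takes the spread between replicates from the ornithogalum pair alone, the wider one. Without vehicle replicate 1 or without vehicle replicate 2, limma passed 0 of the 42 genes and 0 of all clusters, with 14 and 17 autophagy genes, and 4192 and 3986 clusters, at an unadjusted p under 0.05. The lowest adjusted p of an autophagy gene was then 0.0605. Without ornithogalum replicate 1 or 2, the spread came from the closer vehicle pair alone in both fits. Differences depended on which ornithogalum array was kept, for example in AMBRA1, GABARAPL2, ATG7, ATG16L1 and NBR1. They were 0.48, 0.51, -0.70, -0.54 and -1.23 without ornithogalum replicate 2. The values were 0.19, 0.375, -0.38, 0.04 and -0.44 without ornithogalum replicate 1. Each of the 17 genes kept its direction in every alternative that measured it. Apart from a stricter threshold, and from a filter on dim clusters that left out ATG4C and ATG10, 12 of them failed the test only without a vehicle array. The other 5, PIK3R4, WIPI2, WDR45, ATG4B and ATG5, failed under further settings. The excess of rises depended on scaling, and the share of rises among all called clusters moved with it. The deposited values gave 10 higher and 7 lower autophagy genes (58.8% higher, beside 34.2% of all called clusters), and quantile scaling 10 and 4 (71.4%, beside 44.0%). Centring each array on its median gave 13 and 3 (81.2%, beside 54.1%) and moved the median of all cluster differences from 0.04 to 0.20.

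**Figure D1:**
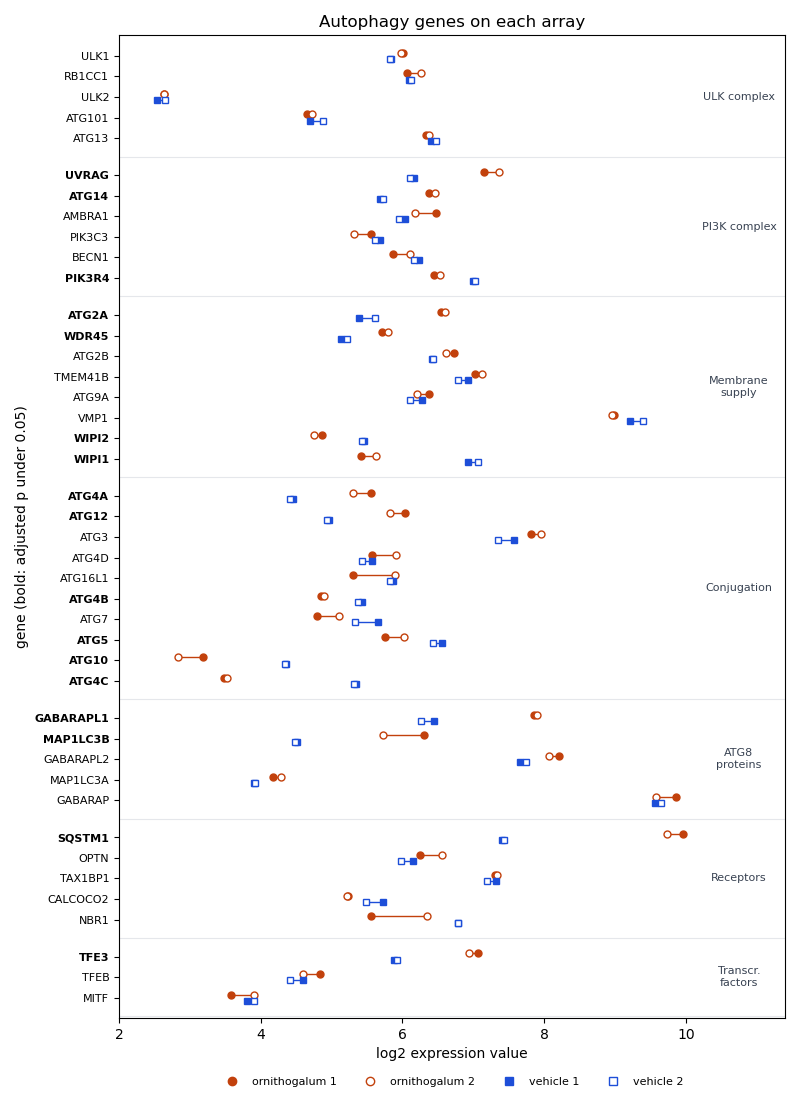
Log2 expression value (horizontal axis) of each of the 42 autophagy genes (rows, grouped by step and ordered by difference) on the 2 ornithogalum arrays (circles) and the 2 vehicle arrays (squares), filled for replicate 1 and open for replicate 2, with a line joining the replicates. Bold names passed the test, and the ornithogalum circles of SQSTM1 at 9.96 and 9.74 stand far right of its vehicle squares at 7.41 and 7.44, while those of ATG4C stand left.

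Initiation genes showed the smallest differences of the 7 steps, and 0 of 5 passed, where 19.2% of all clusters did. Of the 5, 2 were separated between groups by array, where 62.2% of all clusters were. ULK1, the kinase that starts autophagosome formation, had log2 values of 6.01 and 5.98 in ornithogalum cells, against 5.84 and 5.83 in vehicle cells. Its 2 ornithogalum arrays lay above its vehicle arrays, but the difference of 0.16 (SE 0.11, 95% interval -0.12 to 0.44) did not pass (limma adjusted p = 0.359). The partner kinase ULK2, the scaffold RB1CC1 and the regulatory subunits ATG13 and ATG101 had differences from -0.09 to 0.05, with adjusted p from 0.619 to 0.834. ULK2 was dim, between 2.54 and 2.65 on the 4 arrays, at the 13.1th percentile of brightness, so little could be measured for it. For RB1CC1, ATG13 and ATG101 a difference as large as 0.44, about the upper bound for ULK1, lay outside the 95% intervals.

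In the lipid kinase complex, 2 of 6 genes rose and 1 fell, where 6.57% of all clusters were higher and 12.6% lower. All 6 were separated between groups by array, as were 62.2% of all clusters. UVRAG, the subunit of the complex that acts at endosomes, had values of 7.15 and 7.36 in ornithogalum cells and 6.17 and 6.10 in vehicle cells. It rose 2.18-fold (log2 difference 1.12, SE 0.13, adjusted p = 0.0068). ATG14, the alternative subunit that directs the kinase to sites of autophagosome formation, had 6.38 and 6.46 in ornithogalum cells and 5.69 and 5.72 in vehicle cells. The rise was 1.64-fold (0.71, SE 0.11, adjusted p = 0.0149), and the gap between the groups was many times that between replicates.

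PIK3R4, the regulatory subunit VPS15, had 6.44 and 6.53 in ornithogalum cells against 7.00 and 7.02 in vehicle cells and fell 1.44-fold (-0.53, SE 0.11, adjusted p = 0.034). That call did not hold after median centring (-0.37, adjusted p = 0.0906) or without ornithogalum replicate 1 (adjusted p = 0.0501). AMBRA1, a regulator of the BECN1 complex, had 6.48 and 6.18 in ornithogalum cells and 6.04 and 5.95 in vehicle cells, and the difference of 0.34 (SE 0.15) did not pass (adjusted p = 0.18). The catalytic subunit PIK3C3 and the scaffold BECN1 had differences of -0.20 and -0.22, with adjusted p of 0.358 and 0.331. After quantile scaling the difference of BECN1 was -0.0749 and that of PIK3C3 -0.0002. The 2 genes that rose encode the alternative, mutually exclusive subunits of the complex.

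Genes for membrane supply split, with 2 of 8 higher and 2 lower, where 6.57% of all clusters were higher and 12.6% lower. ATG2A, which carries lipid from the endoplasmic reticulum to the growing membrane, had 6.54 and 6.60 in ornithogalum cells and 5.39 and 5.62 in vehicle cells. This was a 2.10-fold rise (1.07, SE 0.13, adjusted p = 0.00793). Its paralog ATG2B, a lipid carrier of the same kind, had a difference of 0.24 (95% interval -0.05 to 0.54, adjusted p = 0.213), and a dimmer ATG2B cluster had 0.08.

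The 4 human WIPI proteins bind phosphatidylinositol 3-phosphate, and 3 of their genes are among the 42. WIPI1 had 5.41 and 5.63 in ornithogalum cells, against 6.92 and 7.07 in vehicle cells, the second largest fall of the 42 genes, 2.78-fold (-1.48, SE 0.14, adjusted p = 0.00449). WIPI2, which recruits ATG16L1, had 4.87 and 4.75 in ornithogalum cells and 5.46 and 5.43 in vehicle cells and fell 1.55-fold (-0.64, SE 0.12, adjusted p = 0.0217). After quantile scaling the WIPI2 difference was -0.44 (adjusted p = 0.0877). WDR45, also called WIPI4, went the other way, with 5.71 and 5.79 in ornithogalum cells and 5.13 and 5.22 in vehicle cells, a 1.49-fold rise (0.57, SE 0.12, adjusted p = 0.0289) that did not hold with all clusters of the table tested (adjusted p = 0.0718).

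VMP1, a lipid scramblase of the endoplasmic reticulum, had 8.99 and 8.96 in ornithogalum cells, against 9.21 and 9.39 in vehicle cells, and its difference of -0.33 did not pass (adjusted p = 0.141). Its partner TMEM41B and the vesicle scramblase ATG9A had differences of 0.21 and 0.11, with adjusted p of 0.281 and 0.60. ATG9A was the only gene of this step whose groups overlapped, while 62.2% of all clusters had groups that did not.

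**Figure D2:**
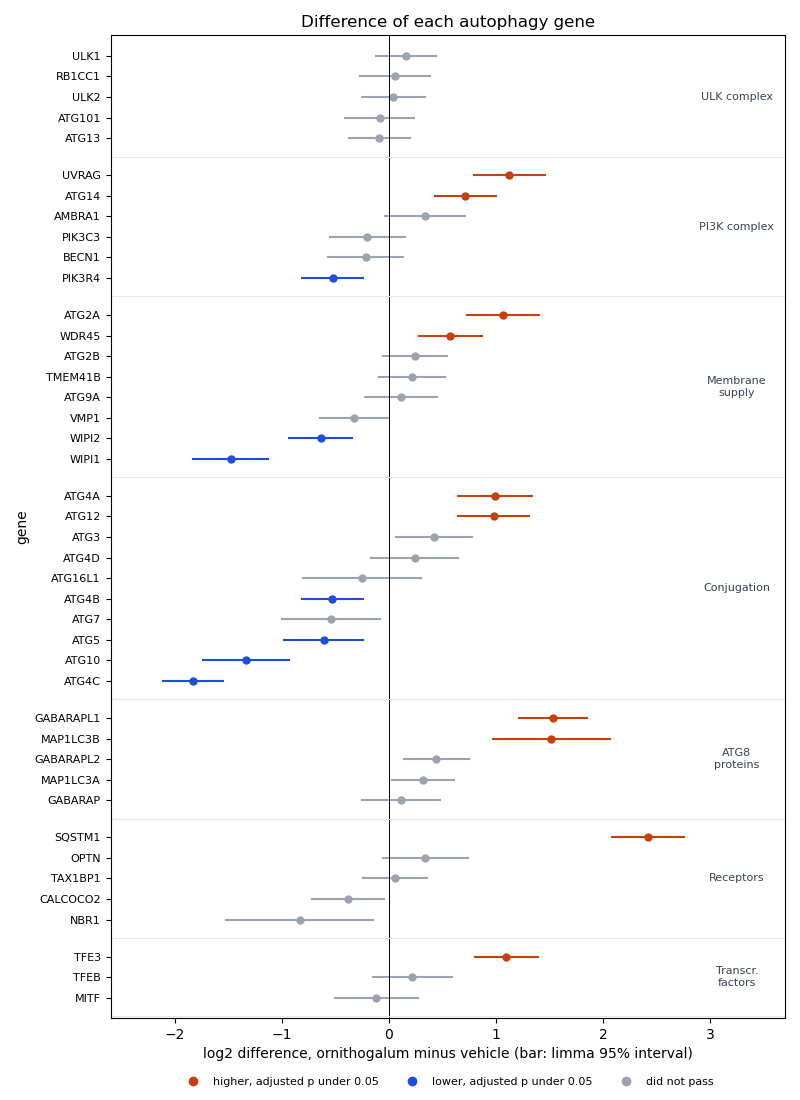
Log2 difference, ornithogalum minus vehicle (horizontal axis), of each autophagy gene (rows, by step) with limma's 95% interval as a bar. Red genes passed as higher and blue ones as lower, and both colours appear in the lipid kinase, membrane supply and conjugation steps, whereas the ATG8 step has points only to the right of 0.

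Of 10 conjugation genes, 6 passed, with 2 higher and 4 lower, where 6.57% of all clusters were higher and 12.6% lower, and the median log2 difference was -0.39. After quantile scaling 2 were higher and 2 lower, and after median centring 3 were higher and 2 lower. The ATG4 proteases, which trim ATG8 proteins before conjugation and release them afterwards, went in opposite directions. ATG4C had 3.48 and 3.52 in ornithogalum cells and 5.34 and 5.32 in vehicle cells. With replicates within 0.05 of each other in both groups, it fell 3.56-fold, the largest fall of the 42 genes (-1.83, SE 0.11, adjusted p = 0.00336). ATG4A had 5.56 and 5.30 in ornithogalum cells, against 4.45 and 4.42 in vehicle cells, and rose 1.99-fold (0.99, SE 0.14, adjusted p = 0.0101). ATG4B, in biochemical work the most active of the 4 proteases, had 4.85 and 4.89 in ornithogalum cells and 5.43 and 5.37 in vehicle cells and fell 1.44-fold (-0.53, SE 0.11, adjusted p = 0.0327). Under median centring the ATG4B difference was -0.37 (adjusted p = 0.0951). ATG4D did not pass (0.24, adjusted p = 0.351).

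ATG12, ATG5 and ATG16L1 form the complex that places ATG8 proteins on the membrane, and ATG7, ATG10 and ATG3 are the enzymes of the conjugation chains. ATG12 had 6.03 and 5.82 in ornithogalum cells and 4.97 and 4.93 in vehicle cells, a rise of 1.97-fold (0.98, SE 0.13, adjusted p = 0.00907). ATG10, the enzyme that hands ATG12 to ATG5, was lower, with 3.19 and 2.83 in ornithogalum cells, against 4.36 and 4.34 in vehicle cells, a 2.53-fold fall (-1.34, SE 0.16, adjusted p = 0.00726). The ATG10 cluster was dim, at the 30.6th percentile of brightness. ATG5, the acceptor of ATG12, had 5.75 and 6.02 in ornithogalum cells and 6.56 and 6.43 in vehicle cells and fell 1.53-fold (-0.61, SE 0.14, adjusted p = 0.0442). Without ornithogalum replicate 1 the ATG5 difference was -0.47 (adjusted p = 0.0643). ATG12 thus went opposite to its acceptor gene and its transfer enzyme gene.

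ATG3, the enzyme that attaches ATG8 proteins to lipid, had 7.81 and 7.96 in ornithogalum cells and 7.57 and 7.35 in vehicle cells. Its groups did not overlap, yet the difference of 0.42 (SE 0.14) did not pass (adjusted p = 0.101). ATG7, the activating enzyme of both chains, had a difference of -0.54 (SE 0.18, adjusted p = 0.103). ATG16L1 had -0.25 (adjusted p = 0.465), and its ornithogalum arrays, at 5.30 and 5.89, lay on either side of the vehicle arrays, at 5.87 and 5.83.

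Among the ATG8 genes 2 of 5 rose and 0 fell, where 6.57% of all clusters were higher and 12.6% lower. The 5 differences ran from 0.11 to 1.53, with a median of 0.44. GABARAPL1 had 7.86 and 7.90 in ornithogalum cells, against 6.44 and 6.26 in vehicle cells, and rose 2.89-fold (1.53, SE 0.12, 95% interval 1.22 to 1.85, adjusted p = 0.00366). Its close copy GABARAPL3, a transcribed pseudogene with a cluster of its own, had 3.10 and 4.02 in ornithogalum cells and 2.79 and 3.02 in vehicle cells (0.66, adjusted p = 0.223), and whether the probes of these clusters tell the copies apart was not tested. MAP1LC3B, which encodes LC3B, the usual marker protein of autophagosomes, had 6.31 and 5.72 in ornithogalum cells and 4.51 and 4.49 in vehicle cells. It rose 2.86-fold (1.52, SE 0.21, 95% interval 0.97 to 2.06, adjusted p = 0.0111). The ornithogalum replicates of MAP1LC3B were 0.59 apart, yet both stood more than 1 unit above the vehicle arrays.

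GABARAPL2 had 8.21 and 8.07 in ornithogalum cells, against 7.66 and 7.74 in vehicle cells, and its difference of 0.44 (SE 0.12) did not pass (adjusted p = 0.063). MAP1LC3A and GABARAP had differences of 0.31 and 0.11, with adjusted p of 0.125 and 0.631. GABARAP, the brightest of the 42 clusters at the 98.8th percentile, had overlapping groups, with 9.86 and 9.58 in ornithogalum cells and 9.57 and 9.65 in vehicle cells. GABARAP had a negative difference, of -0.03, without ornithogalum replicate 1.

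SQSTM1, the gene of the receptor p62, had the largest difference of the 42 genes. Its values were 9.96 and 9.74 in ornithogalum cells and 7.41 and 7.44 in vehicle cells, a rise of 5.36-fold (2.42, SE 0.13, 95% interval 2.09 to 2.76, adjusted p = 0.00336). The difference stayed between 2.31 and 2.58 under all alternatives, those without a vehicle array included, where it did not pass (adjusted p up to 0.0612). It was the only receptor of 5 to pass, a share of 20.0%, near the 19.2% of all clusters. NBR1, a receptor related to p62, had 5.56 and 6.34 in ornithogalum cells, against 6.78 and 6.78 in vehicle cells. The ornithogalum arrays both lay below, but 0.78 apart, and the difference of -0.84 (SE 0.27) did not pass (adjusted p = 0.0966). Without ornithogalum replicate 2, the array nearer to vehicle, it was -1.23 (adjusted p = 0.0063), in a fit whose spread came from the vehicle pair alone. Without ornithogalum replicate 1 it was -0.44 (adjusted p = 0.0593). OPTN (0.34), TAX1BP1 (0.06) and CALCOCO2 (-0.38), receptors for ubiquitin-coated cargo such as damaged mitochondria and bacteria, had adjusted p of 0.201, 0.767 and 0.112.

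Of the 3 MiT transcription factor genes, TFE3 alone passed (33.3%, beside 19.2% of all clusters). It had 7.06 and 6.94 in ornithogalum cells and 5.88 and 5.93 in vehicle cells, a rise of 2.14-fold (1.10, SE 0.12, adjusted p = 0.00564). TFEB had 4.84 and 4.60 in ornithogalum cells and 4.59 and 4.41 in vehicle cells, with a difference of 0.22 (95% interval -0.15 to 0.59, adjusted p = 0.347). MITF, the member best known from melanocytes, was dim, between 3.58 and 3.91, and its difference of -0.12 (adjusted p = 0.63) turned positive after median centring (0.04) and without ornithogalum replicate 1 (0.04). TFEB and TFE3 are controlled largely by their location in the cell, which arrays do not measure.

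Upstream sequence is given for the 3 genes that rose most, the 3 that fell most and ATG14. ATG14 holds a letter match to the site that TFEB and TFE3 bind. So does ATG3, which did not pass and is not printed. RefSeq's table of promoters, on build GRCh38.p14, held 51 promoters of 38 of the 42 genes, and UVRAG, ATG4D, MAP1LC3A and RB1CC1 had no entry. Printed 5′ to 3′ on the gene's strand are the 100 bases before the annotated start, with matches to the motifs searched in capitals. For SQSTM1, which has 3 annotated starts, the most downstream is given. Which starts AGS cells use was not measured.
SQSTM1, chr5:179820805-179820904, plus strand: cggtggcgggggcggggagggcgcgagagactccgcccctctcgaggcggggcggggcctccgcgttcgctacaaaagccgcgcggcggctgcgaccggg
GABARAPL1, chr12:10212777-10212876, plus strand: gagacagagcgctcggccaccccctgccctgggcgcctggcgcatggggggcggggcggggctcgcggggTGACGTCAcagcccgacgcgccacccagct
MAP1LC3B, chr16:87392236-87392335, plus strand: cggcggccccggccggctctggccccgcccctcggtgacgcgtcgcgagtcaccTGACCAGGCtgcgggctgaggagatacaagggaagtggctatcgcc
ATG4C, chr1:62784032-62784131, plus strand: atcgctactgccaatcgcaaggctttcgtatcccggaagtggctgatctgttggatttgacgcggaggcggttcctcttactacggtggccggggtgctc
WIPI1, chr17:68457497-68457596, minus strand: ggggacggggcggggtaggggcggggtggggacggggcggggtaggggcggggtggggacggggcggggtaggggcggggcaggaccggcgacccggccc
ATG10, chr5:81971923-81972022, plus strand: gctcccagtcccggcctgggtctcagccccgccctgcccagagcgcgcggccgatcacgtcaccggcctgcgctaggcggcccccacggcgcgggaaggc
ATG14, chr14:55411831-55411930, minus strand: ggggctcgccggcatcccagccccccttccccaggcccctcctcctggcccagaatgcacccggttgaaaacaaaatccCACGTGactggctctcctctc

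Both strands of the window from 250 bases before to 50 bases after the start were searched for 5 short motifs. CACGTG, the core of the CLEAR element that TFEB and TFE3 bind, was in 2 of 51 promoters, those of ATG14 (at -21, counted from -1 at the base before the start) and ATG3 (at -18 and at 6), and in 7.26% of all 35116 promoters. TGACGTCA, the cAMP response element, was in the promoters of GABARAPL1 (at -30) and MITF (at -152), and in 1.85% of all. TGACNNNGC, the core of the antioxidant response element, was in those of MAP1LC3B (at -46), ATG101 and CALCOCO2, and in 13.3% of all. TGATGNAA, a core of C/EBP-ATF composite sites, was in that of WDR45, and in 3.62% of all, and TGTTTAC, a FOXO site, in those of WDR45 and CALCOCO2, and in 3.42% of all. The matches in WDR45 overlap each other. None of the 3 SQSTM1 windows held any of these letters, but sequence farther from the starts was not searched. The genes with a match include ones that rose and ones that did not pass.

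Further genes of the pathway were read from 3 lists, of which no gene passed without vehicle replicate 1 or 2. The lists were drawn up with earlier results of these data known, so their shares are a description and not a test. Of other selective receptors, 17 of 20 were measured, and 0 rose and 4 fell, with a median log2 difference of -0.33. The share that passed, 23.5%, was near the 19.2% of all clusters. BNIP3L, a mitophagy receptor of the outer mitochondrial membrane, had 8.02 and 7.85 in ornithogalum cells and 9.26 and 9.40 in vehicle cells and fell 2.62-fold (-1.39, SE 0.13, adjusted p = 0.0045). ATL3, a receptor for tubules of the endoplasmic reticulum, had 5.16 and 5.19 in ornithogalum cells and 6.29 and 6.34 in vehicle cells, a 2.21-fold fall (-1.14, SE 0.11, adjusted p = 0.00473). The mitophagy receptor FKBP8 (1.53-fold lower, adjusted p = 0.0227) and the reticulum receptor RTN3 (1.51-fold lower, adjusted p = 0.0472) also fell. The RTN3 call was lost under 9 of 14 alternatives, among them quantile scaling (adjusted p = 0.0961), and the FKBP8 call under 5, among them median centring (adjusted p = 0.0595). The groups of these 4 genes did not overlap, as in 62.2% of all clusters, which adds little for genes already past the test. After median centring 2 genes of this list rose and 2 fell.

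Fusion of the autophagosome with the lysosome was represented by 16 measured genes of 17, of which 2 rose and 3 fell, with a median of 0.01. These were 31.2% of the list, against 19.2% of all clusters (6.57% higher, 12.6% lower). Of clusters at or above the median brightness, 31.0% passed. EPG5, a tether between the membranes, had 6.49 and 6.59 in ornithogalum cells, against 4.69 and 4.53 in vehicle cells, and rose 3.80-fold (1.93, SE 0.12, adjusted p = 0.00336). STX17, the SNARE of the completed autophagosome, had 4.85 and 5.04 in ornithogalum cells and 6.88 and 6.64 in vehicle cells and fell 3.53-fold (-1.82, SE 0.15, adjusted p = 0.00364). VPS39, a subunit of the HOPS tether, had 5.54 and 5.83 in ornithogalum cells, against 7.19 and 7.34 in vehicle cells, a fall of 2.99-fold (-1.58, adjusted p = 0.00466). RAB7A, the GTPase of late endosomes, rose 2.00-fold (adjusted p = 0.00766), and VPS33A, a further HOPS subunit named after its value was seen, fell 1.54-fold (adjusted p = 0.033). The VPS33A call was lost under 7 of 14 alternatives, among them cyclic loess (adjusted p = 0.0644) and quantile scaling (adjusted p = 0.0881). With quantile scaling 5 genes of this list rose, while clusters called higher numbered 1817 of 21214, beside 1393 with the deposited values.

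Control of autophagy by nutrients runs through mTORC1, a kinase complex that restrains ULK1 and TFEB when amino acids are plentiful. Of 27 measured genes of 29 in this list, 9 rose and 4 fell, with a median of 0.27. Together 48.1% passed, against 19.2% of all clusters, where 6.57% were higher and 12.6% lower. Of clusters at or above the median brightness, 31.0% passed. Earlier results were known when this list was drawn up, so the shares only describe it. SESN1, a sestrin that restrains mTORC1, had 7.82 and 7.90 in ornithogalum cells and 6.55 and 6.41 in vehicle cells and rose 2.60-fold (1.38, SE 0.12, adjusted p = 0.0042). SESN2 rose 1.87-fold (adjusted p = 0.00808). RRAGC, a GTPase that brings mTORC1 to lysosomes, had 7.70 and 7.64 in ornithogalum cells, against 6.45 and 6.44 in vehicle cells, a rise of 2.34-fold (1.22, SE 0.11, adjusted p = 0.00438). FNIP1, the partner of folliculin in activating RRAGC, rose 2.25-fold (adjusted p = 0.00486). LAMTOR3 (2.04-fold, adjusted p = 0.0324), FLCN (1.91-fold, adjusted p = 0.0439), LAMTOR5 (1.67-fold, adjusted p = 0.0144) and DDIT4 (1.63-fold, adjusted p = 0.0158) also rose. The LAMTOR3 and FLCN calls did not hold with all clusters of the table tested (adjusted p = 0.0804 and 0.1).

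The 4 genes of this list that fell were, as a share of the list, near the 12.6% of all clusters. NPRL2 (2.07-fold, adjusted p = 0.0276, and 0.0718 with all clusters of the table tested) and NPRL3 (1.70-fold, adjusted p = 0.0131) encode subunits of GATOR1, which opposes mTORC1. RPTOR (1.69-fold, adjusted p = 0.0131) encodes its substrate-binding subunit, and TSC2 (1.41-fold, adjusted p = 0.0371) a subunit of the tuberous sclerosis complex. TSC1, the partner subunit, named after its value was seen, rose 1.53-fold (adjusted p = 0.0435). The TSC2 call was lost under 7 of 14 alternatives, among them quantile scaling (adjusted p = 0.133), and the TSC1 call under 5, among them the test of all clusters of the table (adjusted p = 0.0981). The list thus holds rises and falls among genes that restrain mTORC1. Kinase activity was not measured.

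**Figure D3:**
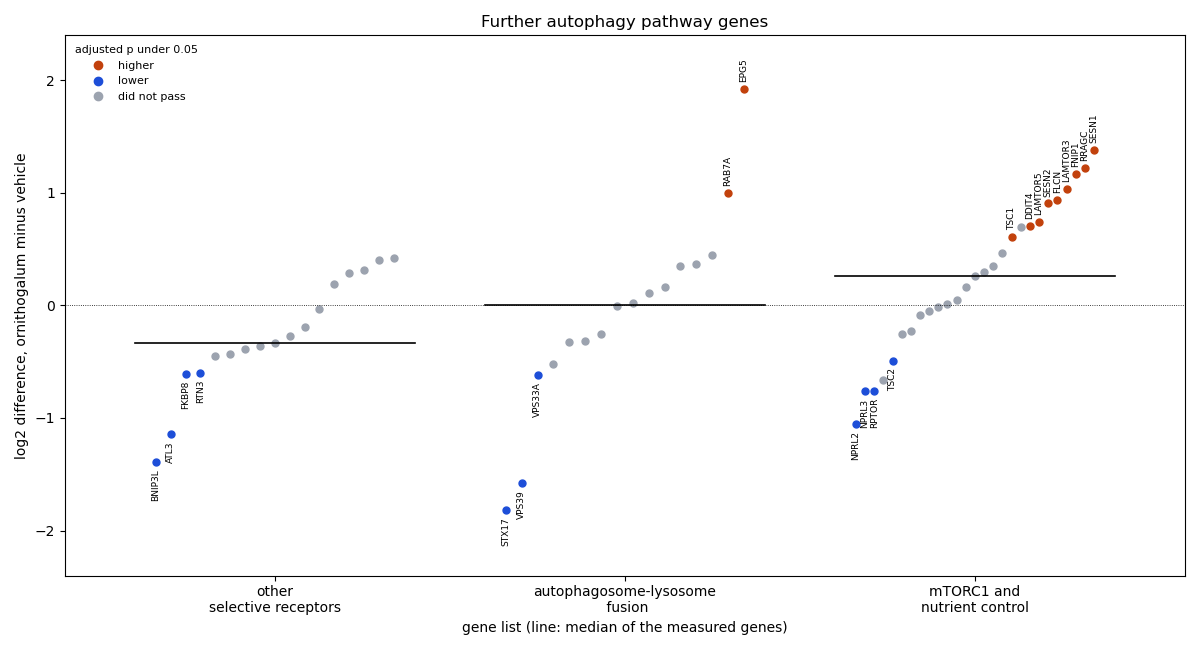
Log2 difference, ornithogalum minus vehicle (vertical axis), of the measured genes of 3 further lists (horizontal axis), ordered within each list, with named points for genes past the test and a line at the list's median. The receptor list has 4 points below and 0 above past the test, while the nutrient list has 9 above and 4 below.

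**Figure D4:**
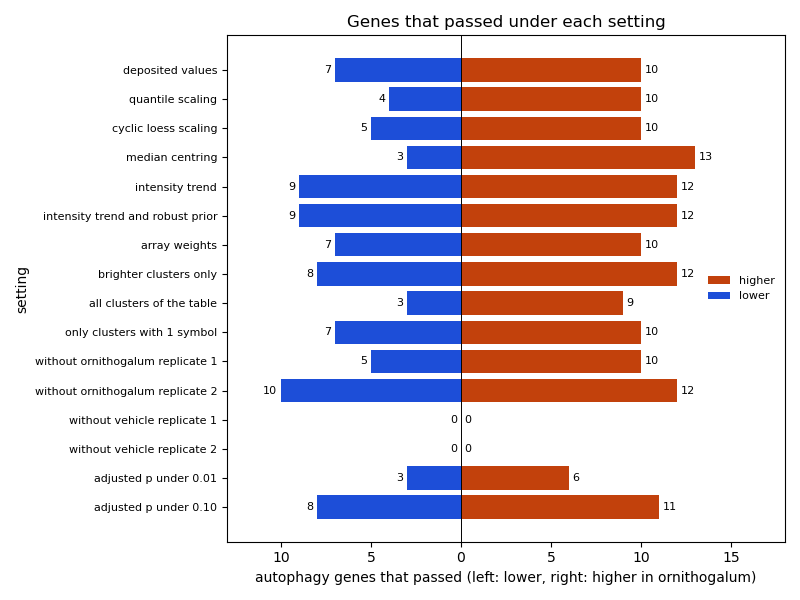
Number of the 42 autophagy genes that passed (horizontal axis) as lower (blue, left) and higher (red, right) under each setting (rows). The deposited values gave 7 lower and 10 higher, median centring 3 and 13, and leaving out either vehicle array 0 and 0.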

How the data were processed

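Total RNA of AGS cells was profiled on 4 arrays, 2 with ornithogalum and 2 with vehicle. The authors deposited log2 values for each cluster. The submitters' processing notes name RMA and Affymetrix Expression Console 1.1. How background and scaling were set is not given in the sources used here. RMA values compress low levels, so differences of dim genes can be understated. No depth applies to arrays, and their number limits the precision.

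Of 33297 clusters, 21214 have at least 1 symbol in the platform annotation of 2016 and were tested. Symbols were updated through the gene number, and genes were read from clusters with 1 symbol (19461), taking the brightest by mean over the 4 arrays. The comparison used lmFit and eBayes of limma 3.58.1 under R 4.3.3, without a trend, two-sided, Benjamini-Hochberg adjusted over all tested clusters at 0.05, as ornithogalum minus vehicle, giving the mean difference, its SE and 95% interval on 2 residual degrees of freedom plus the prior's. A fold is 2 raised to the size of the difference. The code was tested on simulated data.

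The members, the 3 further lists and the tests were chosen with earlier results of these data known. By rule, genes past the test are given in full, of those that did not pass the one of smallest p per step is given with its arrays and the others by their difference, and up to 4 genes are named per further list. Array values of GABARAP, ULK2, MITF and ATG16L1 were added after they were seen. Alternatives were scaling, prior, weights, cluster sets, thresholds, a replicate block and leaving out arrays. Protein sequences were not used here.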

Additional observations from a re-analysis of the deposited data

Results flagged for a closer look

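These clusters lie outside the rule that picked 1 cluster per gene, and drew attention because they passed the test. A cluster annotated to both MAP1LC3B and its near-identical copy MAP1LC3B2 had log2 values of 8.81 and 8.97 in ornithogalum cells and 6.71 and 6.71 in vehicle cells, a difference of 2.18 (SE 0.12, limma adjusted p = 0.00336). That is a larger difference than the 1.52 of the cluster annotated to MAP1LC3B alone, and which of the copies gives the signal was not tested. A second, dimmer ATG4B cluster had 4.71 and 4.83 in ornithogalum cells, against 5.34 and 5.21 in vehicle cells, a difference of -0.51 (SE 0.12, limma adjusted p = 0.0475), beside -0.53 for the brighter one. Whether the probes of the ATG4B clusters overlap was not tested.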

How the results depend on the processing

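Leaving out 1 array gave 0 to 12 autophagy genes higher, 0 to 10 lower, and 0 to 7058 clusters past the test. In the further lists it gave 0 to 4 receptors lower, 0 to 2 fusion genes higher and 0 to 5 lower, and 0 to 9 nutrient genes higher and 0 to 5 lower. These zeros came without a vehicle array, where the spread came from the ornithogalum pair alone. At an adjusted p under 0.01, 6 autophagy genes were higher and 3 lower, with 1443 clusters, and 2 receptors lower, 4 nutrient genes higher and 0 lower. With all clusters of the table tested, a larger adjustment, 2644 passed, with 3 autophagy genes, 2 receptors and 2 nutrient genes lower. Lower autophagy genes numbered 4 after quantile scaling and 3 after median centring. Higher fusion genes numbered 5 after quantile scaling and with brighter clusters only, and 4 after cyclic loess and after median centring. Clusters called higher also became more numerous in these settings, at 1817, 1811, 1738 and 2238, beside 1393 with the deposited values. With brighter clusters only, 45.6% of the clusters passed in either direction, and with an intensity trend 24.4%, beside 19.2% with the deposited values. Higher receptors numbered 2 after median centring, where 2 were lower, and 1 with an intensity trend, with a robust prior and with brighter clusters only. Brighter clusters only left 36 of the 42 genes, without ATG4C and ATG10.

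The replicate number as a block gave 9 autophagy genes higher and 4 lower, without PIK3R4, WDR45, ATG4B and ATG5, and 2 receptors lower, with 3302 clusters. The labels do not say that equal numbers share a culture. The replicate differences of the groups correlated at -0.0585 over clusters, which with 2 arrays per group cannot tell whether equal numbers share a culture or day.

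Of genes that did not pass, 8 changed sign somewhere. ULK2 had -0.131 after quantile scaling, -0.123 after cyclic loess and -0.0127 to 0.0939 without 1 vehicle array. ATG101 had 0.0872, 0.0324 and 0.0718 after quantile scaling, cyclic loess and median centring, and -0.181 to 0.0049 without 1 vehicle array. ATG13 had 0.0094 after quantile scaling and 0.071 after median centring, and MITF 0.0427 after median centring. Without 1 ornithogalum array, ATG16L1 had -0.543 to 0.0438, MITF -0.274 to 0.0405, GABARAP -0.031 to 0.251 and RB1CC1 -0.0486 to 0.158. TAX1BP1 had -0.0040 to 0.117 without 1 vehicle array. The cause was not tested.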

Other observations

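MAP1LC3C, an ATG8 family gene outside the 42, had log2 values of 4.97 and 4.85 in ornithogalum cells and 4.73 and 5.03 in vehicle cells, which overlapped (difference 0.03, SE 0.15, limma adjusted p = 0.905).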
